A study of Homo sapiens with 4 samples.

Results

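The collagen genes were taken as all protein-coding genes whose symbol has the form COL, a number, A and a number, and 44 of the 57905 genes in the count tables met this rule. Each encodes an alpha chain of a collagen, and 39 of the 44 had 10 or more counts summed over the samples. The samples were U87MG cells, a single established human glioblastoma line, which were left untreated (control, n = 2) or received 50 nM chaetocin for 24 h (n = 2). Chaetocin is a fungal compound known as an inhibitor of histone H3 lysine 9 methyltransferases and of thioredoxin reductase. Since the controls are described as untreated, effects of chaetocin and of its solvent cannot be told apart. Polyadenylated RNA was sequenced, and the counts per sample summed to between 21241984 and 32590479. In CPM, the count of a gene scaled to normalized library size, 3 counts correspond to between 0.0844 and 0.138. Sequenced reads included PCR copies, so this floor covers counting error only.

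A collagen molecule is a helix of 3 alpha chains, made of the same or of different chains, that is folded in the endoplasmic reticulum, exported and assembled outside the cell. Fibrillar collagens (types I, II, III, V, XI, XXIV and XXVII) build the banded fibrils of connective tissue, and network collagens (types IV, VIII and X) build sheets such as basement membranes. FACIT collagens, the fibril-associated collagens with interrupted triple helices, bind the surface of fibrils. The other collagens include the beaded filaments of type VI, the anchoring fibrils of type VII, the transmembrane collagens and the multiplexins. Normal brain holds little fibrillar collagen outside its vessels and meninges, whereas glioma cells in culture can make several collagens themselves.

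Per length of exon, collagen VI led the collagens of U87MG cells. That length joins the exons of all annotated transcripts of a gene and can exceed its longest transcript, unequally between genes. For COL16A1 it was 9269 bases against 5736, and for COL12A1 12481 against 11723, so the order of genes close in level depends on it. In RPKM, which is CPM divided by the exon length in kilobases, the control level was 129 ± 6.61 for COL6A3, 125 ± 14.9 for COL6A1 and 109 ± 14.5 for COL6A2 (mean ± SD, n = 2 samples), and the samples of neighbours in this order overlapped. Next came the chains of type I collagen, with control levels of 59.7 ± 17.3 RPKM for COL1A1 and 53.7 ± 10.7 RPKM for COL1A2, whose samples overlapped too. COL7A1 followed with 23.7 ± 3.56 RPKM, and the chains of type V collagen were alike in level, with 18.0 ± 3.75 RPKM for COL5A2 and 17.9 ± 6.45 RPKM for COL5A1. COL12A1 and COL16A1, both FACIT collagens, stood at 10.6 ± 1.30 and 8.99 ± 0.310 RPKM. COL8A1, the most abundant network collagen, overlapped COL16A1 with 8.03 ± 1.44 RPKM. Chains that mark other tissues were near or below the floor. COL2A1, the chain of cartilage collagen, had 0 counts in every sample, which allows a level of up to 0.0844 to 0.138 CPM. COL6A5, COL6A6, COL23A1 and COL24A1 had fewer than 10 counts in all.

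Collagen reads summed to less with chaetocin, and the groups did not overlap. The summed level of all 44 genes was 6498 and 5433 CPM in the controls and 4006 and 2517 CPM with chaetocin, a mean of 54.7% of control. As a share of all counts, collagens took 0.612% and 0.514% in the controls and 0.410% and 0.274% with chaetocin. The treated samples differed from each other by more than the lower control differed from the higher treated sample. COL6A3 made up much of the sum, and without it the remaining 43 genes summed to 3867 and 2985 CPM in the controls and to 2719 and 1728 CPM with chaetocin. In bulk RNA, fewer cells that make a collagen and less RNA per cell cannot be told apart.

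Of the 44 genes, 29 passed edgeR's filter on low counts and were tested, and 21 of these 29 had a log2 fold change below 0, against 49.1% of all 16416 genes tested. None of the 29 passed a Benjamini-Hochberg adjusted p of 0.05 in edgeR's quasi-likelihood test, with 0 called lower and 0 called higher. Over all genes tested, 0.743% were called lower and 1.11% higher. At an unadjusted p under 0.05, edgeR counted 12 collagen genes lower (9.43% of all genes) and 2 higher (10.9% of all genes). The 2 were COL4A2 and COL4A3, and COL4A3 passed the filter through its chaetocin samples alone, so it is no support for a difference. DESeq2, which the study's methods name, called 7 collagen genes lower and 0 higher at an adjusted p under 0.05, where it called 1.52% of all genes lower and 1.21% higher. The 7 genes were COL1A2, COL5A2, COL6A3, COL7A1, COL12A1, COL13A1 and COL22A1. Over the 39 genes with 10 or more counts, edgeR called 3 lower (COL6A3, COL7A1 and COL12A1) and 0 higher, against 1.19% and 1.32% of all genes so filtered, and with no filter it called 11 lower and 1 higher, against 2.39% and 2.48%. With the main filter, the adjusted p of 6 collagen genes lay between 0.0506 and 0.0828 with the value below control in each, and the count called lower changed with the sample left out. Without control sample 1 it was 2, without control sample 2 it was 6, without chaetocin sample 1 it was 12 and without chaetocin sample 2 it was 7. Under the same settings the number of all genes called lower was 97, 151, 1673 and 940, against 122 with all samples. Each of these fits has 1 sample in a group, which is assumed to vary like the pair of the other group, and the chaetocin pair differed more than the control pair (chi-square per degree of freedom 60.8 against 21.7). Labels do not say that the samples of a group came from separate cultures, so these p-values measure the spread between these samples, which may be technical.

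Set side by side, the samples of the groups did not overlap for 20 of the 29 tested collagen genes. Both chaetocin samples lay below both controls for 16 genes, where 26.0% of all genes tested did so, and above both controls for 4 genes, COL4A3 among them, where 26.8% did so. Among collagen genes with a mean of at least 10 CPM, 13 of 14 had a log2 fold change below 0, against 59.5% of all genes at that level. The exception was COL15A1, with a log2 fold change of 0.08. Of the 15 tested collagen genes under 10 CPM, 8 were below 0, against 34.9% of all genes at that level. The share below 0 was thus lower among rare genes for all genes too, and the abundance groups were not compared by a test.

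**Figure D1:**
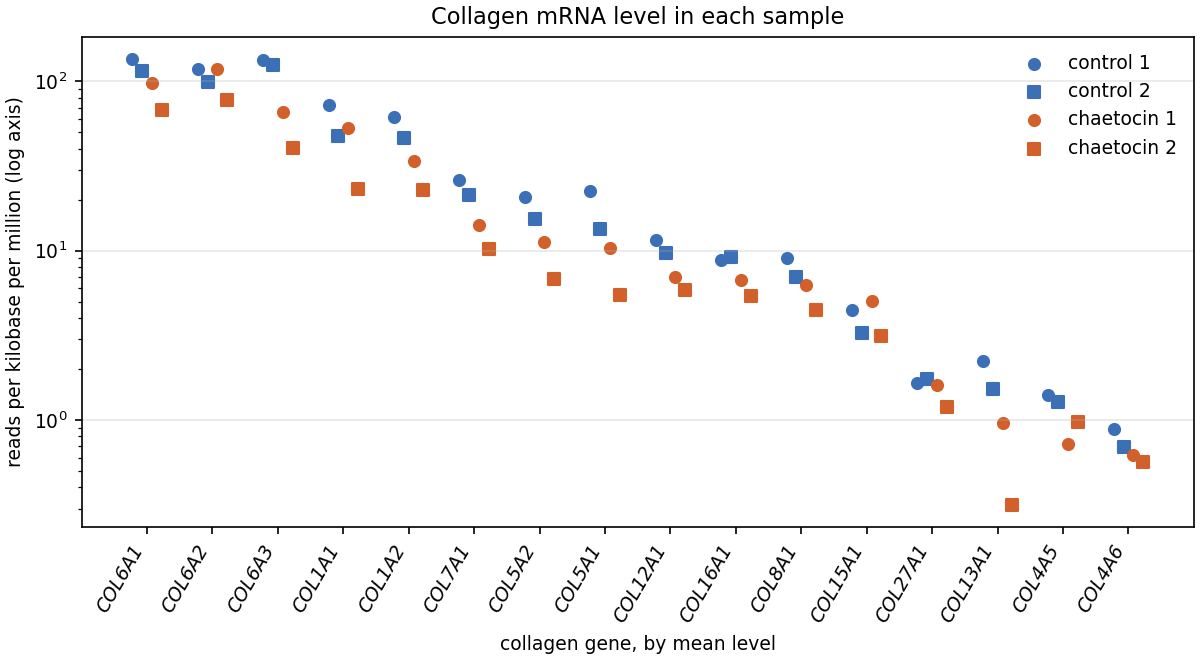
Level of the 16 tested collagen genes with the most reads per length, in RPKM on a log axis, ordered by mean level, with a point for each of the 2 control (blue) and 2 chaetocin (orange) samples. COL6A3 reads 134 and 125 RPKM in the controls and 65.6 and 40.1 with chaetocin, and among these genes the groups overlap for COL6A2, COL1A1 and COL15A1.

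By class, the median log2 fold change was -0.63 over the 8 tested fibrillar genes, -0.58 over the 6 FACIT genes, -0.14 over the 9 other genes and 0.28 over the 6 network genes, beside 0.0079 over all genes tested. With a sample left out, the fibrillar median was -1.09 without chaetocin sample 1 and -0.31 without chaetocin sample 2, the FACIT median was -0.36 without control sample 2, and the median of the others was -0.89 without chaetocin sample 1 and -0.36 without chaetocin sample 2. The network class had a median above 0 and a sum below control, with log2 fold changes below 0 in its abundant and above 0 in its rare members. Where 10 or more counts in every sample were required, which removed COL4A3 and COL10A1, the network median was -0.47, and downsampled without COL10A1 it was -0.32. Over all 9 network genes, each with 10 or more counts summed, it was 0.953, in DESeq2 it was 0.96, without control sample 1 it was 0.78 and without chaetocin sample 1 it was 0.98. In summed CPM, chaetocin samples held 56.1% of the control mean for fibrillar, 72.6% for network, 63.6% for FACIT and 53.2% for other collagens. On the log2 scale the ratio of the fibrillar sums was -0.876, with -1.32 without chaetocin sample 1 and -0.436 without chaetocin sample 2, the ratio of the network sums was -0.46, with -0.303 without control sample 1, and that of the others was -0.943, with -0.627 without chaetocin sample 2. Fibrillar sums were 1822 and 1272 CPM in the controls and 1125 and 612 CPM with chaetocin, network sums were 114 and 91.8 against 80.9 and 68.5 CPM, and FACIT sums were 229 and 211 against 153 and 127 CPM. In all 3 classes and in the others the treated sums were below the control sums. Differences between classes were not tested.

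Collagen VI took the largest share of the collagen reads. Its usual molecule holds the chains of COL6A1, COL6A2 and COL6A3, which assemble into beaded microfilaments around cells. COL6A3 lies on the minus strand of chromosome 2 (237324003 to 237414375, GRCh38), and COL6A1 (45981737 to 46005050) and COL6A2 (46098097 to 46132849) lie on the plus strand of chromosome 21. COL6A3 read 2632 and 2448 CPM in the controls and 1287 and 788 CPM with chaetocin. Its treated samples were well below its controls, which were close to each other. On the log2 scale the difference was -1.29 ± 0.26 (SE), with an adjusted p of 0.0506 in edgeR and of 3.07e-06 in DESeq2. COL6A1 read 723 and 611 CPM in the controls and 521 and 360 CPM with chaetocin, without overlap, a log2 difference of -0.60 ± 0.22 (adjusted p = 0.176, edgeR). It was -0.885 without chaetocin sample 1 (adjusted p = 0.00202) and -0.37 without chaetocin sample 2 (adjusted p = 0.179). COL6A2 read 641 and 530 CPM in the controls and 639 and 420 CPM with chaetocin. These groups overlapped, and the log2 fold change was -0.14 ± 0.23 (adjusted p = 0.776, edgeR), or 0.12 without chaetocin sample 2.

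Per length of exon the chains of collagen VI had like levels in the controls, and their ratios were compared within each sample, where library size cancels. The levels of these ratios and shares depend on the length used, which was 19633 bases for COL6A3 against a longest transcript of 10749. For COL6A2 it was 5386 against 3461. The log2 change of a ratio between the groups does not depend on it. COL6A3 per COL6A1 was 0.991 and 1.09 in the controls and 0.673 and 0.595 with chaetocin. COL6A2 per COL6A1 was 0.879 and 0.861 in the controls and 1.22 and 1.16 with chaetocin. So COL6A3 made up 34.5% and 37.0% of the collagen VI reads per length in the controls and 23.3% and 21.6% with chaetocin, and the share of COL6A2 was 30.6% and 29.2% against 42.1% and 42.0%. COL6A1 made up between 33.9% and 36.3% in all 4 samples. The log2 ratio of COL6A3 to COL6A2 was lower by 1.16 with chaetocin, with a pooled SD between samples of 0.10. These ratios were not tested, and an exact two-sided permutation test of a ratio in 2 samples against 2 could give no p under 0.333. Chains of other collagens showed no such separation: COL1A2 per COL1A1 was 0.852 and 0.972 in the controls and 0.632 and 0.995 with chaetocin, and COL5A2 per COL5A1 was 0.920 and 1.15 against 1.09 and 1.24.

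**Figure D2:**
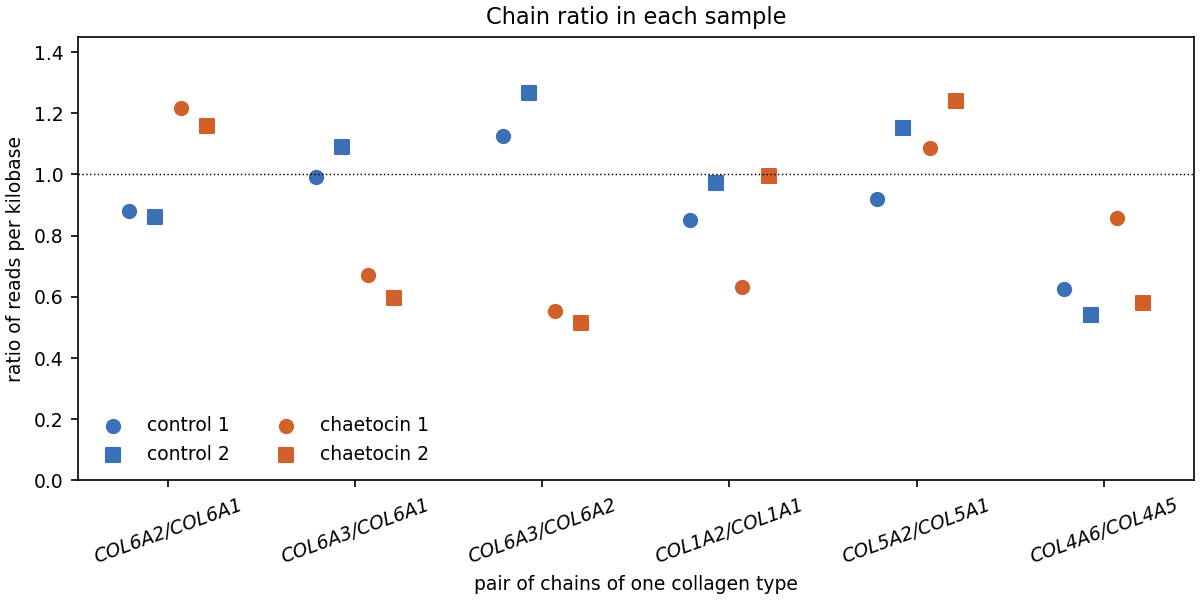
Ratio of the reads per kilobase of 2 chains of the same collagen in each control (blue) and chaetocin (orange) sample, on a linear axis with a dotted line at equal levels. COL6A3 per COL6A2 is 1.13 and 1.27 in the controls and 0.552 and 0.514 with chaetocin, whereas the groups overlap for COL1A2 per COL1A1, COL5A2 per COL5A1 and COL4A6 per COL4A5.

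The promoters of these genes also differ in composition, and windows of 300 bases from RefSeq (GRCh38.p14), from 250 bases before to 50 after a gene's start, were matched by symbol for 32 of the 44 genes. The windows of COL6A3 and COL6A2 are shown for the chains of 1 molecule that differed most in their values, and those of COL7A1, COL12A1 and COL13A1 as examples of lower and COL4A2 of higher values. Capitals mark matches on either strand to 4 motifs. These are the GC box (GGGCGG), the CCAAT box (spelled as named), the TATA box, searched as TATAAA, and the element of the AP-1 factors, searched as TGANTCA. No base of the windows shown is in more than 1 match.
COL6A3 (chr2:237414115-237414414, minus strand): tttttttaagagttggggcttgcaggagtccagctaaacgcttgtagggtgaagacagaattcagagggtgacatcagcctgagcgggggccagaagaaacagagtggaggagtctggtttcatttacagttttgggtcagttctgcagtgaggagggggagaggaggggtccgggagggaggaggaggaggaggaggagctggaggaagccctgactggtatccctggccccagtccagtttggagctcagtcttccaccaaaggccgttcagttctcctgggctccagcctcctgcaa
COL6A2 (chr21:46097862-46098161, plus strand): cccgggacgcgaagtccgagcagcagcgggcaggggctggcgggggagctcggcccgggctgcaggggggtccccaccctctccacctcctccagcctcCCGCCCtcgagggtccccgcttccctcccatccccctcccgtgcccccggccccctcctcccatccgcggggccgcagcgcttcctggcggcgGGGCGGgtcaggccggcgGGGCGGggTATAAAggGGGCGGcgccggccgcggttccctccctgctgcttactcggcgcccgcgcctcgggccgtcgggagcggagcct
COL7A1 (chr3:48595280-48595579, minus strand): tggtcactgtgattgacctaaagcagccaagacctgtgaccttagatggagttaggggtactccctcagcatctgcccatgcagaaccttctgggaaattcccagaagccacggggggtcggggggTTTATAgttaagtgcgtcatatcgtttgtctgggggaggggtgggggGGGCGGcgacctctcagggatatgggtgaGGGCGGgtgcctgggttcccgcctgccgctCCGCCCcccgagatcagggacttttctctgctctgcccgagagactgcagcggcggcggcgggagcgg
COL12A1 (chr6:75206004-75206303, minus strand): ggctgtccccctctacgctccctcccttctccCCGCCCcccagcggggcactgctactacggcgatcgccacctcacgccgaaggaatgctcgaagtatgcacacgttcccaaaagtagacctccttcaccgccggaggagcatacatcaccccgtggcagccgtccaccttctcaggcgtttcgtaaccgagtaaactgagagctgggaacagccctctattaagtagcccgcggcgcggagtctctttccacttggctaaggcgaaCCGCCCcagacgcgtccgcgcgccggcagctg
COL13A1 (chr10:69801656-69801955, plus strand): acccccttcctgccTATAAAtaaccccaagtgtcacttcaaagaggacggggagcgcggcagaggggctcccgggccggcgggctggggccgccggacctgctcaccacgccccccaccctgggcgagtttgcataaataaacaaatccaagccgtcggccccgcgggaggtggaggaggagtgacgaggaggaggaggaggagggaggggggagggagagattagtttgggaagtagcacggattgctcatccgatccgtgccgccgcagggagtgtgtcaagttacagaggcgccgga
COL4A2 (chr13:110307034-110307333, plus strand): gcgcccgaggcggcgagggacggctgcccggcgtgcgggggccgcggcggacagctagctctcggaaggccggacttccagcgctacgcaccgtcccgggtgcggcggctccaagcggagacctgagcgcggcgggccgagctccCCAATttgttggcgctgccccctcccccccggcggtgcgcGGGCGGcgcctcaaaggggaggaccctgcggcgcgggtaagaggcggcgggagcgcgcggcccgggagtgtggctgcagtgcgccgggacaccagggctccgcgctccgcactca
COL6A3 has 56.3% GC, 4 CG dinucleotides and none of the 4 motifs, whereas COL6A2 has 79.3% GC, 36 CG dinucleotides, 4 GC boxes and 1 TATA box. COL7A1 has 3 GC boxes and a TATA box, COL12A1 has 2 GC boxes, and COL13A1 has a TATA box. The window of COL4A2, with a GC box and a CCAAT box, shares 226 bases with that of COL4A1, which starts in the opposite direction. Over the 32 windows, 18 held a GC box (45.0% of all 35116 windows), 10 a CCAAT box (34.6%), 5 a TATA box (11.5%) and 0 an AP-1 element (7.71%), and the median GC content was 66.3% against 58.7%. A match is a run of letters and not a bound site, and a window without a match says only that these letters are not in it.

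Of the 8 tested fibrillar chains, 6 had a log2 fold change below 0 and 2 rare chains, COL3A1 and COL5A3, were above 0, and none passed the test in edgeR. Collagen I, the main collagen of skin and bone, is made of 2 chains of COL1A1 and 1 of COL1A2. COL1A2 read 684 and 515 CPM in the controls and 375 and 256 CPM with chaetocin, a log2 difference of -0.93 ± 0.23 (adjusted p = 0.0814 in edgeR and 0.00198 in DESeq2). COL1A1 read 707 and 466 CPM in the controls and 523 and 226 CPM with chaetocin. Here the higher treated sample was above the lower control, and the log2 difference was -0.65 ± 0.38 (adjusted p = 0.385, edgeR). It was -1.37 without chaetocin sample 1 (adjusted p = 0.0141) and -0.17 without chaetocin sample 2 (adjusted p = 0.699).

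Collagen V joins collagen I in fibrils and sets their diameter. COL5A1 read 251 and 149 CPM in the controls and 116 and 60.9 CPM with chaetocin, a log2 difference of -1.18 ± 0.34 (adjusted p = 0.119, edgeR). COL5A2 read 154 and 114 CPM against 84.4 and 50.4 CPM, a log2 difference of -0.997 ± 0.25 (adjusted p = 0.0828 in edgeR and 0.00353 in DESeq2). Both chains thus lay below control in both treated samples and by like amounts. COL27A1 and COL11A1, known from cartilage, had log2 fold changes of -0.28 and -0.61 with adjusted p-values of 0.453 and 0.369 (edgeR). COL3A1, which lies beside COL5A2 on chromosome 2 (188974320 to 189012746) and forms fibrils in skin and vessels, had 12 and 4 counts in the controls and 24 and 20 with chaetocin. That log2 fold change of 1.39 ± 0.70 rested on few counts (adjusted p = 0.307, edgeR), and COL5A3 at 0.26 was as rare. COL3A1 passed the filter on low counts only with its chaetocin samples, since control sample 2 fell short of the minimum. With a sample left out COL3A1 ran from 0.71 without control sample 2 to 2.50 without control sample 1, COL5A1 from -1.72 without chaetocin sample 1 to -0.76 without control sample 1, and COL27A1 from -0.52 without chaetocin sample 1 to -0.08 without chaetocin sample 2.

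In the network class, COL8A1, which forms sheets in vessel walls and the eye, read 85.1 and 66.0 CPM in the controls and 58.9 and 42.2 CPM with chaetocin (log2 fold change -0.58 ± 0.20, adjusted p = 0.163, edgeR). Collagen IV, the scaffold of basement membranes, has 6 chain genes that lie head to head in pairs. COL4A5 and COL4A6 on the X chromosome were the collagen IV chains with the most reads per length. COL4A5 read 16.8 and 15.1 CPM in the controls and 8.55 and 11.6 CPM with chaetocin (log2 fold change -0.66 ± 0.21, adjusted p = 0.141, edgeR), and COL4A6 read 8.20 and 6.40 CPM against 5.74 and 5.24 CPM (log2 fold change -0.41 ± 0.24, adjusted p = 0.375). Their groups did not overlap. With a sample left out COL8A1 was -0.84 without chaetocin sample 1 and -0.37 without chaetocin sample 2, and COL4A6 was -0.24 without control sample 1.

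COL4A1 and COL4A2, the chains of most basement membranes, were rare in these cells. COL4A2 had 66 and 102 counts in the controls and 125 and 233 with chaetocin, or 2.70 and 3.55 against 5.74 and 6.56 CPM. It was the collagen gene higher with chaetocin that had the smallest adjusted p, at a log2 difference of 0.97 ± 0.26 (adjusted p = 0.0955 in edgeR and 0.110 in DESeq2). COL4A1, on the other strand of chromosome 13 (110148963 to 110307233), overlaps the start of COL4A2 (110305812 to 110513209), and the strand setting of the counting is not given in the sources used here, so reads in the overlap could belong to either, and antisense genes of COL4A2, COL5A1 and COL18A1 leave the same doubt there. COL4A1 had 2 and 7 counts in the controls and 2 and 21 with chaetocin and was not tested. COL4A3 had 1 and 7 counts in the controls and 14 and 20 with chaetocin (log2 fold change 1.98 ± 0.75, adjusted p = 0.192, edgeR), and it passed the filter on low counts through its chaetocin samples alone, so its sign is no support for a difference. COL10A1, a chain of growth cartilage, had 10 and 3 against 15 and 16 (log2 fold change 1.15 ± 0.72, adjusted p = 0.412). It too passed only with its chaetocin samples, since control sample 2 fell short of the minimum. With a sample left out COL4A3 ran from 1.27 without control sample 1 to 3.72 without control sample 2, and COL10A1 from 0.44 without control sample 2 to 2.37 without control sample 1. The 3 tested chains above 0 in this class had at most 233 counts in a sample, and the untested COL4A1, COL4A4 and COL8A2 also had a mean level above control, at 209.8%, 272% and 149% of it, with at most 32 counts.

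FACIT collagens in these cells were mostly COL12A1 and COL16A1. COL12A1, which binds collagen I fibrils, read 143 and 120 CPM in the controls and 87.4 and 72.8 CPM with chaetocin. Its log2 fold change was -0.72 ± 0.16 (adjusted p = 0.0655 in edgeR and 0.00858 in DESeq2). COL16A1 read 81.3 and 85.4 CPM in the controls and 62.6 and 50.0 CPM with chaetocin (log2 fold change -0.57 ± 0.16, adjusted p = 0.104, edgeR). COL22A1, a collagen of tissue junctions such as that of muscle and tendon, had 51 and 55 counts in the controls and 15 and 12 with chaetocin. That was the lowest log2 fold change of the collagens, -2.01 ± 0.46 (adjusted p = 0.0664 in edgeR and 0.0475 in DESeq2), from a level of 2.09 and 1.91 CPM in the controls. COL9A2, a cartilage chain, had 19 and 11 counts in the controls and 7 and 53 with chaetocin, so its treated samples lay on both sides of the controls (log2 fold change 0.72 ± 0.71, adjusted p = 0.617, edgeR). COL14A1 and COL21A1 had log2 fold changes of -0.38 and -0.60 at under 2 CPM, and COL21A1 was -0.36 without control sample 2. COL14A1 changed sign to 0.15 without control sample 2 and 0.075 without chaetocin sample 1, and its lowest value with a sample left out was -1.19.

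COL7A1 encodes the only chain of anchoring fibrils, which fasten the basement membrane of skin to the tissue below. It read 290 and 235 CPM in the controls and 157 and 113 CPM with chaetocin, without overlap. The log2 fold change was -0.96 ± 0.20 (adjusted p = 0.0528 in edgeR and 0.000526 in DESeq2). COL13A1, a transmembrane collagen found at cell adhesions and at the neuromuscular junction, read 13.2 and 8.94 CPM in the controls and 5.65 and 1.86 CPM with chaetocin (log2 fold change -1.60 ± 0.46, adjusted p = 0.113 in edgeR and 0.00836 in DESeq2). It was -2.57 without chaetocin sample 1 and -0.97 without chaetocin sample 2. COL17A1, the transmembrane collagen of hemidesmosomes, read 2.70 and 2.51 CPM against 3.03 and 2.20 CPM, a log2 difference of -0.0058 ± 0.31 (adjusted p = 0.994, edgeR). These transmembrane chains thus differed in value by more than their standard errors, a difference that was not tested.

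Multiplexins carry many interruptions in their helix, and the end of COL18A1 is cut to give endostatin, a fragment that limits vessel growth. COL15A1 read 29.8 and 21.8 CPM in the controls and 33.7 and 21.0 CPM with chaetocin, with overlapping groups (log2 fold change 0.08 ± 0.25, adjusted p = 0.894, edgeR). Its sign changed with the sample left out, with -0.14 without control sample 2 and -0.29 without chaetocin sample 1. COL18A1 had 8 and 14 counts in the controls and 14 and 7 with chaetocin (log2 fold change -0.06, adjusted p = 0.974), and COL28A1, a collagen of peripheral nerves, had 13 and 25 against 12 and 40 (log2 fold change 0.28, adjusted p = 0.814). The 10 genes with 10 or more counts that were not tested were COL4A1, COL4A4, COL8A2, COL9A1, COL9A3, COL11A2, COL19A1, COL20A1, COL25A1 and COL26A1. COL4A4 had 8 and 3 counts in the controls and 6 and 32 with chaetocin, and COL26A1 had 0 in both controls and 1 and 9 with chaetocin. In COL4A1, COL4A4, COL8A2, COL9A3 and COL26A1 the highest count was that of chaetocin sample 2. That library was the deepest and also had 27748 genes with a count, against 24174 to 24699 in the others, the lowest share of protein-coding counts (95.9%), the highest share of mitochondrial counts (4.12%) and the lowest summed collagen level. The part of these features in the collagen values was not tested.

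Several features moved along with these values. Within both groups, sample 1 lay above sample 2 for most collagens: control 1 was above control 2 in 21 of 29 genes and chaetocin 1 above chaetocin 2 in 24 of 29, against 48.8% and 49.8% of all genes tested. Collagen transcripts are long and rich in GC, with a median length of 6346 bases and 55.2% GC, against 3339 bases and 47.8% over all tested genes. With a correction for GC and length the median log2 fold change of the collagens was -0.49 instead of -0.57. Of 10 glioma and astroglial markers 6 were tested and were below 0, with a summed level of 4843 to 5551 CPM in the controls and 1994 to 3247 CPM with chaetocin. VIM and CD44 carried this sum. SLC1A3 was called lower (log2 fold change -1.22, adjusted p = 0.0266, edgeR). AQP4 had 0 counts, SOX2 and S100B had 0 in both controls and at most 5 with chaetocin, and GFAP had 10 to 25, so the astroglial label rested on few markers. Of 10 fibroblast and pericyte markers 9 were tested, 5 with a log2 fold change below 0 and 4 above (DCN 0.34, ACTA2 0.39, TWIST1 0.097 and RGS5 0.00042). Among them PDGFRB and CSPG4 were called lower (log2 fold change -1.65 and -0.85, adjusted p = 0.0306 and 0.0436, edgeR), THY1 had 1 to 5 counts, and the sum was 235 to 249 CPM in the controls and 149 to 155 CPM with chaetocin. Among leukocyte markers, CD3E and AIF1 had 0 counts and the summed level, mostly CD74, was 176 to 249 CPM against 115 to 207 CPM. PTPRC had 0 and 1 counts in the controls and 15 and 27 with chaetocin (adjusted p = 0.0412 in edgeR and 0.0551 in DESeq2), and it passed the filter on low counts through the chaetocin samples alone. The 5 endothelial markers matched summed to 13.6 to 18.6 CPM against 11.7 to 12.2 CPM. KDR carried this sum, at 49.9% of the control mean (adjusted p = 0.0853, edgeR), whereas VWF, at under 3 CPM, had a log2 difference of 1.41 (adjusted p = 0.126). The part of the sample order and of these markers in the collagen values was not tested.

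The machinery that makes, carries, binds and cuts collagen was read from 7 lists of 101 genes, of which 88 were tested. Of these, 74 had a log2 fold change below 0, against 49.1% of all genes tested and 59.5% of those with a mean of at least 10 CPM. At an adjusted p under 0.05 in edgeR, 10 were called lower (0.743% of all genes) and 0 higher (1.11% of all genes). At an unadjusted p under 0.05 there were 39 lower (9.43% of all genes) and 3 higher (10.9%; TLL1, MMP1 and LAMA3), and DESeq2 called 24 lower (1.52%) and 1 higher (1.21%). The median over the 88 genes was -0.45. Without chaetocin sample 1 the count called lower in edgeR was 41, and without chaetocin sample 2 it was 25, where the number of all genes called lower was 1673 and 940 instead of 122. With upper-quartile factors and with 10 or more counts required in every sample the count was 5, and among protein-coding genes only it was 6. Under these settings the number of all genes called lower was 88, 80 and 93, against 122 in the main fit. Of the 10 genes, HSPA5, P3H4, SEC24D and DDR2 missed the threshold without control sample 1, and HSPA5, SEC24D, ADAMTS3, DDR2 and ADGRG1 missed it without control sample 2.

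Enzymes and chaperones that modify and fold collagen chains were below 0 in 19 of 23 genes (49.1% of all genes), with a median of -0.38, and 2 fell (0.743% of all genes). HSPA5, the chaperone BiP of the endoplasmic reticulum, read 1491 and 1359 CPM in the controls and 782 and 615 CPM with chaetocin (log2 fold change -1.03 ± 0.20, adjusted p = 0.0466, edgeR). P3H4, a partner of the enzymes that hydroxylate collagen, read 34.1 and 28.4 CPM against 17.7 and 14.1 CPM (log2 fold change -0.98 ± 0.19, adjusted p = 0.0466). SPARC, a protein that binds collagen outside the cell, had a log2 difference of -1.05 (adjusted p = 0.0799) and CALR of -0.44 (adjusted p = 0.241). P4HA3 had 9 and 8 counts in the controls and 15 and 15 with chaetocin, a log2 difference of 0.75 (adjusted p = 0.519). It passed the filter on low counts through the chaetocin samples alone. Export genes were below 0 in 9 of 10 tested (49.1% of all genes), with a median of -0.30, and SEC24D fell (0.743% of all genes were called lower). SEC24D is a coat protein of the vesicles that leave the endoplasmic reticulum and read 153 and 141 CPM in the controls and 89.7 and 83.8 CPM with chaetocin (log2 fold change -0.76 ± 0.14, adjusted p = 0.0427). SEC31A and SAR1A of the same coat had log2 fold changes of -0.45 and 0.02 (adjusted p = 0.169 and 0.957).

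Outside the cell, propeptides are cut off and chains are crosslinked, and 10 of 13 such genes were below 0 (49.1% of all genes) with a median of -0.60. ADAMTS3, a procollagen peptidase, fell from 17.7 and 20.1 CPM to 7.72 and 10.2 CPM (log2 fold change -1.07 ± 0.21, adjusted p = 0.0469, edgeR). The crosslinking oxidases LOXL2 and LOXL4 had log2 fold changes of -0.90 and -1.46 (adjusted p = 0.153 and 0.271), and TLL1 had 3 and 6 counts in the controls and 8 and 28 with chaetocin (log2 fold change 1.80, adjusted p = 0.196), having passed the filter on low counts through the chaetocin samples alone. All 10 receptor genes tested were below 0 (49.1% of all genes), with a median of -0.66, and 5 fell (0.743% of all genes): ITGA2, ITGA10, ITGA11, DDR2 and ADGRG1. DDR2, a kinase that binds fibrillar collagen, read 369 and 406 CPM in the controls and 231 and 215 CPM with chaetocin (log2 fold change -0.80 ± 0.16, adjusted p = 0.0488). ADGRG1, an adhesion receptor for collagen III, read 562 and 596 CPM against 323 and 249 CPM (log2 fold change -1.02 ± 0.19, adjusted p = 0.0399). For the integrin alpha chains ITGA2, ITGA10 and ITGA11 the log2 fold changes were -1.71, -1.90 and -1.80, with adjusted p-values of 0.0279, 0.0312 and 0.0266. ITGB1, their beta chain, and ITGA1 had log2 fold changes of -0.48 and -0.40 (adjusted p = 0.327 and 0.271).

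Genes for collagen cleavage were below 0 in 10 of 11 tested (49.1% of all genes), with a median of -0.40. MMP14, a membrane-bound collagenase, fell from 262 and 342 CPM to 133 and 127 CPM (log2 fold change -1.22 ± 0.18, adjusted p = 0.0279, edgeR). MMP1, the interstitial collagenase, went the other way by sign, with 11.3 and 9.33 CPM in the controls and 40.4 and 14.1 CPM with chaetocin, where the treated samples were far apart (log2 fold change 1.40 ± 0.44, adjusted p = 0.138). MMP2 and TIMP3 had log2 fold changes of -0.55 and -1.57 (adjusted p = 0.187 and 0.134). Of 9 tested collagen-binding proteoglycans and glycoproteins 8 were below 0 (49.1% of all genes). In edgeR none was called at an adjusted p under 0.05, with 5 lower and 0 higher at an unadjusted p (9.43% and 10.9% of all genes), and DESeq2 called 3 lower (FN1, THBS1 and NID2) and 0 higher (1.52% and 1.21% of all genes). FN1, fibronectin, read 6473 and 4835 CPM in the controls and 3496 and 2023 CPM with chaetocin (log2 fold change -1.03 ± 0.30, adjusted p = 0.114), THBS1 had -1.16 and DCN 0.34 (adjusted p = 0.0776 and 0.735). Where 59.5% of all genes with a mean of at least 10 CPM were below 0, laminins and other basement membrane partners were below 0 in 8 of 12 (66.7%). Of these, edgeR called none at an adjusted p under 0.05, with 6 lower and 1 higher at an unadjusted p (9.43% and 10.9% of all genes), and DESeq2 called LAMB1, LAMC1 and LAMA5 lower (1.52% of all genes) and LAMA3 higher (1.21%). LAMC1 had a log2 difference of -0.82, LAMB1 of -0.88 and LAMA3 of 0.88 (adjusted p = 0.0522, 0.0584 and 0.0893, edgeR).

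**Figure D3:**
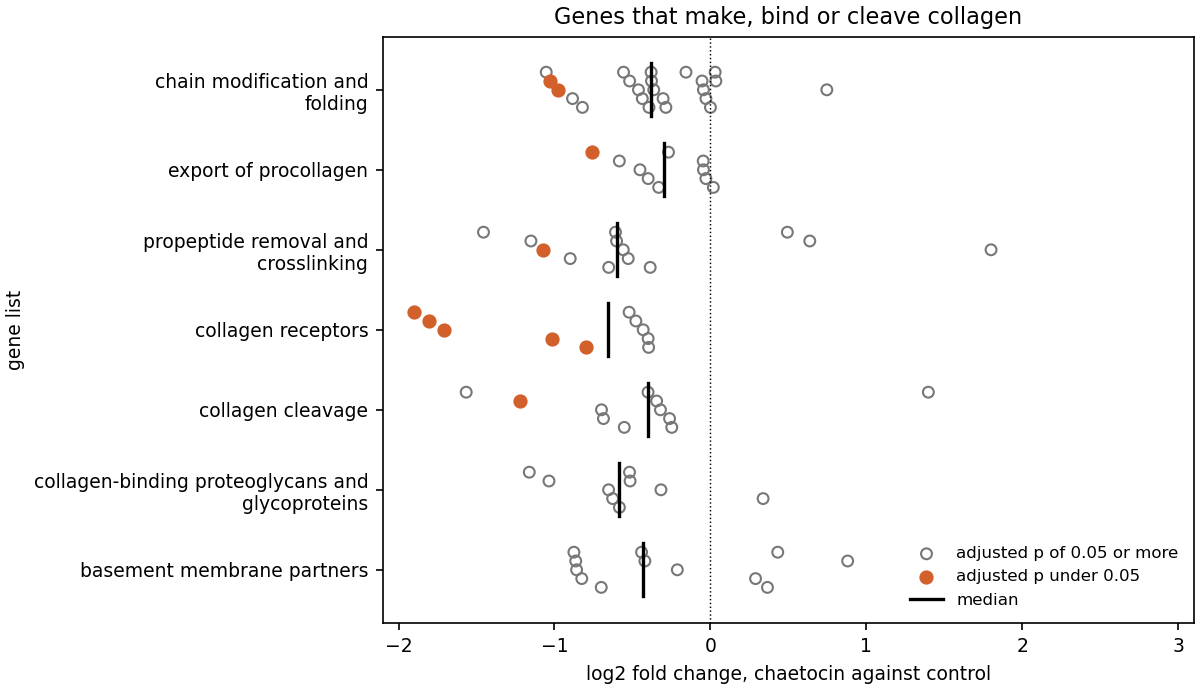
Log2 fold change of chaetocin against control for each tested gene of the 7 lists of genes that make, carry, bind or cut collagen, with filled points for an adjusted p under 0.05 (edgeR) and a line at each list's median. The 10 filled points all lie below 0, 5 of them among the collagen receptors.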

How the data were processed

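RNA of 4 samples of U87MG cells was analysed, 2 untreated and 2 treated with chaetocin, grouped by the labels. The values that the authors deposited are unnormalized read counts of Ensembl genes, with a file for each sample. The submitters' processing notes name cutadapt, TopHat, TopHat2, SAMtools and GRCh37, with no versions, and reads were single-end of 50 bp. Counting tool, annotation and strand setting are not given in the sources used here. Symbols, gene types, transcript lengths and GC came from GENCODE v29 on GRCh38, which lists 52338 of 57905 identifiers, and positions are on that build.

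Genes were filtered with filterByExpr (minimum count 10), normalized by TMM (factors 0.942 to 1.09) and tested with the quasi-likelihood test of edgeR 4.0.16 in R 4.3.3 (robust, group only), with Benjamini-Hochberg adjustment over all 16416 genes and a threshold of 0.05. DESeq2 1.42.0 was an alternative. It fitted 43 collagen genes, of which 30 had an adjusted p. CPM values are on TMM-normalized library sizes, and RPKM values divide them by the joined exon length of all annotated transcripts. SE was derived from the log2 fold change and its F statistic. The biological coefficient of variation was 16.8%. Replicates differed beyond sampling noise (chi-square per degree of freedom 21.7 and 60.8). The scripts were tested on simulated data.

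Members, classes and gene lists were chosen with earlier results of these data known, so lists are given as counts and medians. Full values are given for the 3 most abundant tested collagen genes of each class and those with the largest and smallest change, for called genes of each list (except the integrins ITGA2, ITGA10 and ITGA11), and as log2 fold changes for each list's most abundant gene and its extremes. COL4A2, COL4A1, COL4A4, COL10A1 and COL26A1 were added after their values were seen. RefSeq promoters were the first window listed per gene, with windows on chromosome 8 left out. Alternatives were other size factors, filters, thresholds, a replicate block, a GC and length correction (values for 97.4% of genes tested), downsampling, protein-coding genes only and leaving out each sample. Some of the markers are not reported here.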

Additional observations from a re-analysis of the deposited data

How the results depend on the processing

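The summed levels of the fibrillar, network, FACIT and pooled other collagens stayed below control with other size factors, downsampled and with a sample left out. Log2 ratios lay between -1.24 and -0.569 for all collagens. Since all treated sums lay below all control sums, leaving out a sample could not change that sign. Within the others, the multiplexins (106% of the control mean) and the unclassed genes (141%) summed above control. Of these 4 groups, no alternative gave any but the network class a median above 0. The number of collagen genes called lower was 0 with TMM and also with DESeq2's size factors in edgeR, upper-quartile factors, 10 or more counts in every sample, the GC and length correction and protein-coding genes only. It was 1 downsampled, 3 with 10 or more counts summed, 7 with DESeq2, 11 with no filter, 12 at an unadjusted p and 2 to 12 with a sample left out. Called higher were 1 with no filter, 2 at an unadjusted p and 0 to 1 with a sample left out. For the 7 lists, 10 lower and 0 higher became 5 and 0 with upper-quartile factors, 5 and 0 with 10 counts in every sample, 6 and 0 with protein-coding genes only, 24 and 1 with DESeq2, 30 and 2 with no filter, 39 and 3 at an unadjusted p, and 7 to 41 and 1 to 1 with a sample left out. Over all genes, 122 lower and 182 higher became 80 and 114 with 10 counts in every sample, 251 and 277 with 10 summed, 481 and 385 with DESeq2, 759 and 787 with no filter, 1548 and 1791 at an unadjusted p, and 97 to 1673 and 215 to 1332 with a sample left out. With a log2 fold change of at least 1 also required, 62 were lower.

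Samples share a number across groups, and same-numbered samples deviated together by r = 0.19 over genes, but nothing pairs them and with 2 pairs the check is weak. With the replicate block, 13 collagen genes were called lower and 1 higher, 35 and 2 list genes, and 1053 and 1036 of all genes. With the block and the GC and length correction these were 12 and 1, 36 and 3, and 886 and 856, and the FACIT median was -0.55.

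Class medians are given under the alternatives that moved them beyond the spread of the samples, and as the whole range with a sample left out, which also holds values within that spread. The median of all collagens was -0.397 with no filter, -0.399 with 10 or more counts summed, -0.41 with DESeq2 and -0.52 to -0.28 with a sample left out. The fibrillar median was -1.09 to -0.31 with a sample left out. The network median was 0.954 with no filter, 0.953 with 10 summed, 0.96 with DESeq2 and 0.26 to 0.98 with a sample left out, and it reversed to -0.47 with 10 counts in every sample and to -0.32 downsampled, settings that removed rare chains. The FACIT median, whose samples hardly spread, was -0.51 with upper-quartile factors, -0.492 with no filter, -0.493 with 10 summed, -0.62 with 10 in every sample, -0.497 with DESeq2, -0.55 with the GC and length correction, -0.556 with protein-coding genes only and -0.73 to -0.36 with a sample left out. The median of the other collagens was -0.35 with 10 in every sample, -0.36 downsampled and -0.89 to -0.28 with a sample left out. The cause was not tested where none is given.

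Of 970 values of single genes, 26 reversed. With a sample left out the log2 fold change ranged from -0.84 to 1.38 for COL9A2, -1.19 to 0.15 for COL14A1, -0.48 to 0.12 for COL6A2, -0.96 to 1.01 for COL5A3, -0.29 to 0.38 for COL15A1, -1.04 to 0.64 for COL18A1, -0.24 to 0.21 for COL17A1 and -0.36 to 0.67 for COL28A1, from -0.31 to 0.97 for DCN and -0.017 to 0.050 for SAR1A. COL18A1 was 0.019 with upper-quartile factors. COL17A1 was 0.070 with upper-quartile factors, 0.015 with 10 counts in every sample, 0.044 with the GC and length correction, 0.034 with the replicate block added to it and 0.023 with protein-coding genes only. SAR1A was -0.00082 with no filter and -0.0017 with 10 counts summed. Depth limits the rare chains: 15 of the 44 collagen genes were not tested.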
